A study of Mus musculus with 12 samples.

Results

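The 39 genes described here encode the machinery that turns signals from Rac and Cdc42 into branched actin filaments: WASP and its partner, the WAVE complex, the ARP2/3 complex, the PAK and LIM kinases with cofilin, and the actins with the proteins that bind their monomers and filaments. They were chosen by gene symbol, and all 39 were found among the 24016 genes of the deposited tables. Where a symbol had several transcripts, which was so for 15 of the 39, the one with the largest mean, averaged over the 3 tables, was used. RNA was taken from stem and progenitor cells of the blood (HSPCs) in C57BL/6 mice, which the labels sort into groups named Double, Smc3, Npm1 and WT, with 3 libraries each. Smc3 is a cohesin subunit, Npm1 is a nucleolar chaperone often mutated in acute myeloid leukaemia, and Double carries both lesions going by its name. No allele, Cre driver or sex is named in the labels, nor is it said there if each library is a mouse of its own, so the errors below may be technical. Every group, WT included, received 7 doses of pIpC, a double-stranded RNA mimic, by intraperitoneal injection every other day at an age of 4 to 6 weeks. Cells were taken 4 to 6 weeks after that, by lysis of red cells and depletion of mature lineages.

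In blood cells the GTPase Rac2, loaded with GTP by exchange factors such as Dock1, binds the WAVE complex, while Cdc42 binds WASP. Either contact exposes a tail that switches on the ARP2/3 complex, which starts a new filament from the side of an old one. Rac and Cdc42 also activate PAK kinases, these activate LIM kinases, and LIM kinases phosphorylate and so silence cofilin, which severs old filaments. Loss of the blood cell forms of WASP, of the WAVE subunit Hem1 (Nckap1l), of Arpc1b or of Coro1a causes immune deficiency in humans. The series title places DOCK1 and RAC2 at the centre of leukaemia with NPM1 and cohesin lesions. Of the genes below, the WAVE and PAK arms take signals from Rac, while WASP is bound by Cdc42.

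Each of the 3 deposited tables compared 1 genotype with the same WT libraries and gave a mean over the 6 libraries with a moderated log2 fold change. They hold no values per library, so the errors after ± below are the standard errors of the authors' fit (3 against 3 libraries) and the spread between libraries cannot be shown. A gene was called higher or lower at an adjusted p under 0.05. Depth, worked out from transcripts with 1 read, was 27.8 to 35.4 M reads per Double library, 19.8 to 51.6 M in Smc3, 10.6 to 33.1 M in Npm1 and 10.24 to 22.03 M in WT. Mean library size factors were 2.10 times that of WT in Double, 2.15 times in Smc3 and 1.36 times in Npm1. The Y-linked genes Ddx3y, Eif2s3y, Kdm5d and Uty had a summed mean normalized count of 2280 in the table of Double, 2022 in that of Smc3 and 3.80 in that of Npm1. Since the WT libraries are in all 3 tables, the Double and Smc3 groups held male libraries. Sex, depth and genotype cannot be told apart where Double or Smc3 is compared with WT or with Npm1. The Npm1 and WT libraries together had nearly no reads of these Y-linked genes, and between them depth and genotype cannot be told apart. HSPC markers such as Kit, Cd34 and Gata2 were present, with mean normalized counts of 7661, 4061 and 4179 in the table of Double, and no defining marker was at 0.

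Upstream sequences are shown for 3 genes on which the comparisons below turn: the monomer binder Tmsb4x, which had the largest difference between Smc3 and Npm1, the ARP2/3 subunit Arpc1b, which had the largest fall in Npm1, and the actin gene Actg1. Each is the 250 bases before the RefSeq transcription start, on the strand of the gene, in RefSeq build GRCm38.p6, not the mm9 build of the authors' alignment. The Tmsb4x window is chrX:167209219-167209468 on the minus strand, that of Arpc1b is chr5:145114006-145114255 on the plus strand, and that of Actg1 is chr11:120348496-120348745 on the minus strand. Capitals mark every match on either strand to a RUNX site (TGTGGT), to a GC box (GGGCGG), or, in Actg1, to a CArG box, the element bound by serum response factor.
Tmsb4x: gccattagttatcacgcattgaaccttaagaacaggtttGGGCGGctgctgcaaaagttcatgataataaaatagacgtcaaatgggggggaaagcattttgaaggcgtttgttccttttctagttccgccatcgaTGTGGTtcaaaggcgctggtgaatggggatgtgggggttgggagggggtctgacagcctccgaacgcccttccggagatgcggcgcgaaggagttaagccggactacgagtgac
Arpc1b: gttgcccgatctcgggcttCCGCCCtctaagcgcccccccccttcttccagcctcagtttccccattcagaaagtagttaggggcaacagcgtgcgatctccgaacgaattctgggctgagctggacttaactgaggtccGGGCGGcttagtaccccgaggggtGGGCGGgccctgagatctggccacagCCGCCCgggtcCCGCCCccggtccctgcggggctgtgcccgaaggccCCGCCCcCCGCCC
Actg1: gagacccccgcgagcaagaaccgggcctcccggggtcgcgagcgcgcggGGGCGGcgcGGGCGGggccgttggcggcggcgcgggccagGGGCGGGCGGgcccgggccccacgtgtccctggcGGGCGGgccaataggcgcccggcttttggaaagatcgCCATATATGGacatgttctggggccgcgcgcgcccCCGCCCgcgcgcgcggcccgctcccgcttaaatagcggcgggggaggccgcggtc

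In the Tmsb4x window the RUNX match lay 114 to 109 bases before the start and the GC box 211 to 206 bases before it. The Arpc1b window held 7 GC boxes and Actg1 held 6, of which those 161 to 152 bases before the start overlap. The CArG box of Actg1 lay 90 to 81 bases before the start. Windows were given for 30 of the 39 genes, 41 windows in all, and a CArG box was in 2 of them (4.88%, Actg1 and Arpc4) against 1.47% of all 32851 windows of this length. A GC box was in 22 windows (53.7%) against 32.7% of all windows, and a RUNX match in 5 (12.2%: Limk1, Limk2, Tmsb4x, Was and Wipf1) against 14.0% of all. CCGGAAGT, the letters bound by many ETS factors, was in 4 (9.76%: Actr3, Arpc1a, Arpc3 and Arpc4) against 2.88% of all, and GAGGAAGT, bound by PU.1, in 0 against 2.44%. These matches describe letters and say nothing of binding.

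Levels per transcript length set the scale of the family. On the scale of mean normalized count per kb of transcript and per M normalized counts (below, per kb per M) over the 6 libraries of a table, the cytoplasmic actin Actb was highest at 1144 in the table of Double, 1173 in that of Smc3 and 1125 in that of Npm1. Profilin 1 (Pfn1), which feeds actin monomers to growing filament ends, followed at 928, 943 and 903 in the same tables. Tmsb4x, thymosin beta 4, which holds monomers in reserve, stood at 665, 746 and 403, but each mean takes in the WT libraries and the tables were normalized separately. Cofilin 1 (Cfl1) stood at 339, 342 and 316, and the ARP2/3 subunit Arpc2 at 275, 279 and 233. WASP (Was) stood at 51.5, 51.8 and 44.2, and the membrane-bending adaptor Baiap2 was the lowest gene with an adjusted p, at 2.25, 2.59 and 1.66. Actb, Actg1, Cfl1, Pfn1 and Tmsb4x have near-identical processed copies in the mouse genome, so their counts are uncertain.

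**Figure D1:**
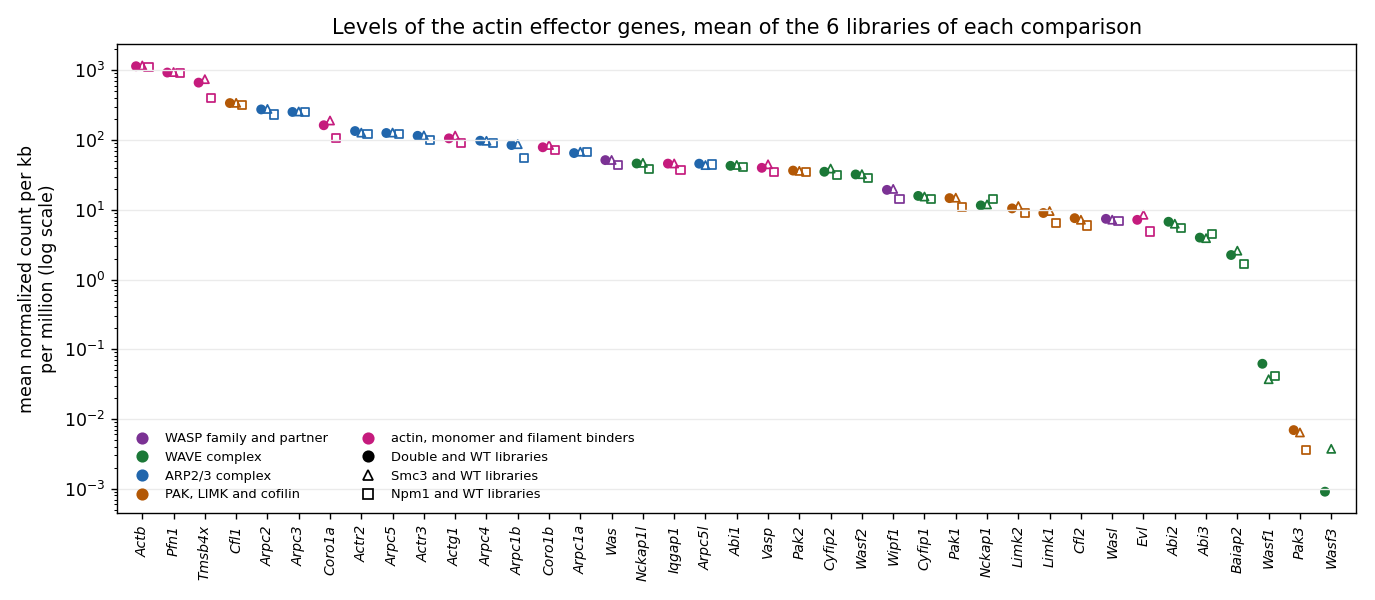
Mean normalized count per kb of transcript per M counts (vertical, log scale) for the 39 genes (horizontal), each as the mean of the 6 libraries of the Double (filled circles), Smc3 (triangles) and Npm1 (squares) tables, coloured by role. Actb and Pfn1 stand highest and Wasf3 and Pak3 lowest, and a gene at 0 has no symbol.

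Wasf1, Wasf3 and Pak3, forms of WAVE and PAK used in brain, were close to absent. Their reads could be recovered for each library: Wasf1 had 7, 9 and 9 reads in the Double libraries, 7, 2 and 4 in Smc3, 5, 3 and 2 in Npm1 and 2, 1 and 0 in WT, from the deepest to the shallowest library of each group. The Double libraries were the highest for Wasf1 and overlapped those of Smc3, while WT was the shallowest group and no adjusted p was given. Wasf3 had 1, 0 and 0 reads in Double, 4, 1 and 0 in Smc3, and 0 in every Npm1 and WT library. Pak3 had 2, 0 and 3 reads in Double, 3, 2 and 0 in Smc3, 0 in every Npm1 library and 0, 0 and 2 in WT. The other 36 genes had an adjusted p in each table, so all counts of calls against WT below are out of 36.

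Against WT, the actin effector genes called in Double and in Smc3 were mostly higher and those called in Npm1 mostly lower, as the plot of changes by gene shows. In Double HSPCs 8 of 36 genes were higher and 2 lower in the authors' deposited table, where 8.87% of all genes tested were higher and 9.82% lower. In Smc3 HSPCs 7 were higher and 0 lower in the authors' deposited table, against 7.94% and 6.6% of all genes. At an unadjusted p under 0.05, 12 were higher and 1 was lower there, against 15.1% and 14.7% of all genes. In Npm1 HSPCs 1 was higher and 7 were lower in the authors' deposited table, against 9.1% and 9.0% of all genes. The median log2 fold change of the 36 was 0.14 in Double, 0.16 in Smc3 and -0.09 in Npm1 in the authors' deposited tables, while the medians of all genes tested lay at 0.01, -0.00 and 0.01. The 3 comparisons share their WT libraries, so their values are not independent. Since these are bulk samples, a change in the share of a cell type and a change in RNA per cell cannot be told apart.

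**Figure D2:**
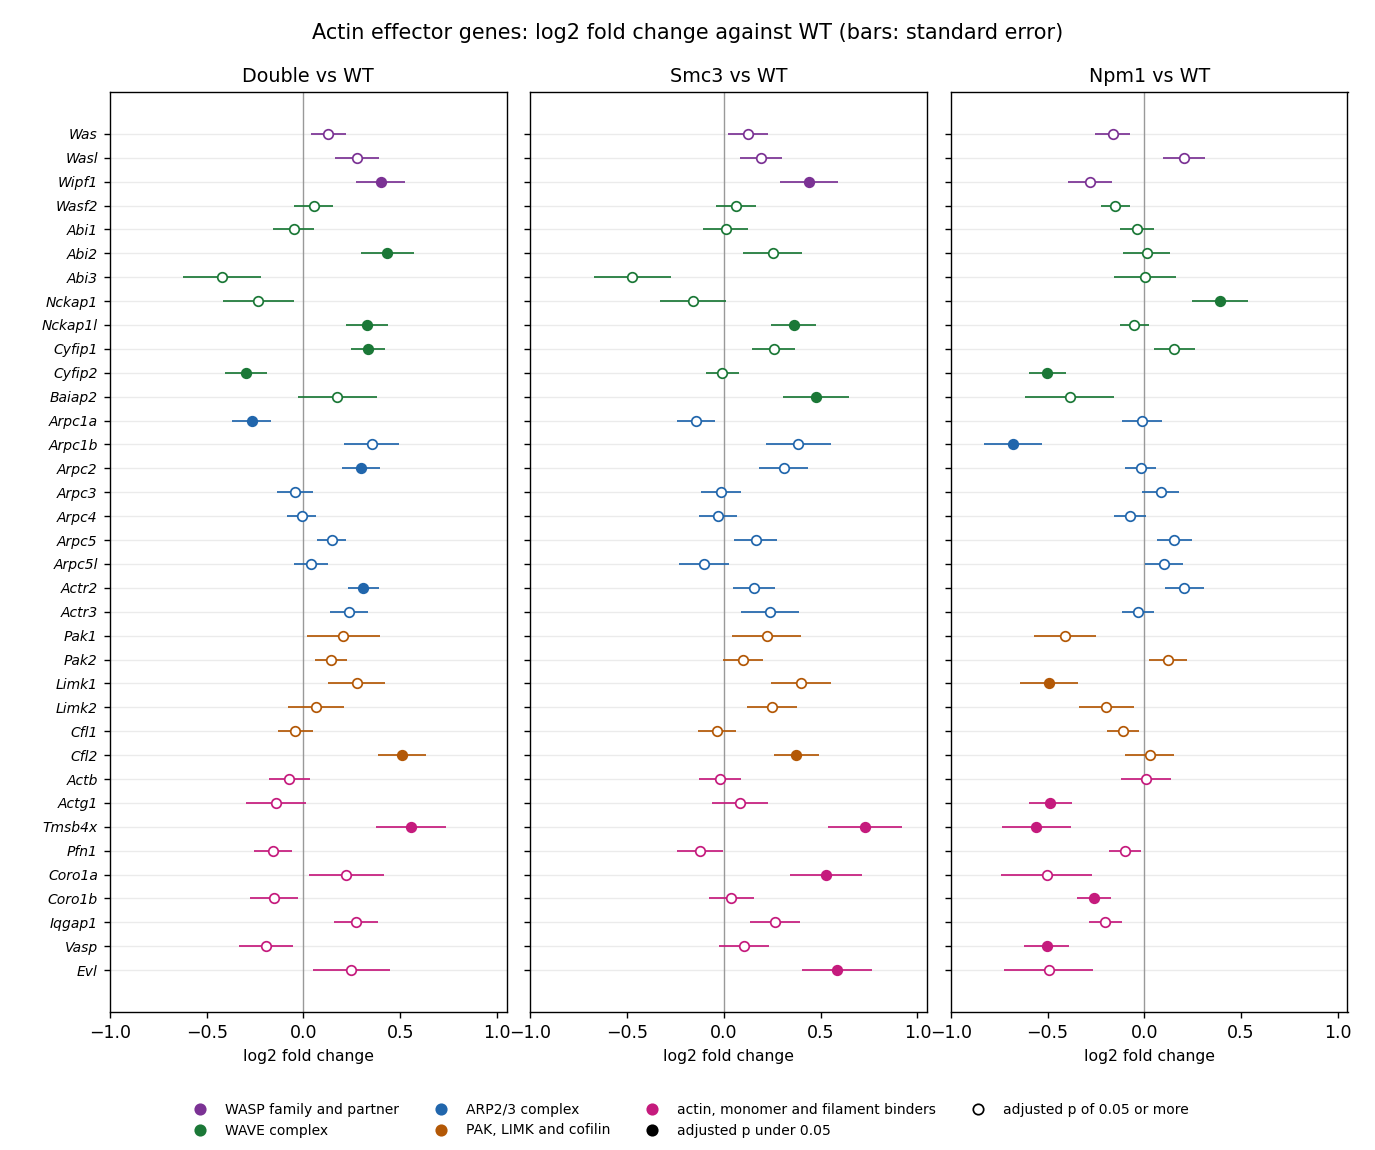
Log2 fold change against WT (horizontal, points) with its standard error (bars) for the 36 genes with an adjusted p, in Double, Smc3 and Npm1 (panels), coloured by role, from the authors' deposited tables. Filled points have an adjusted p under 0.05: 8 to the right and 2 to the left of 0 in Double, 7 to the right in Smc3, 1 to the right and 7 to the left in Npm1.

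Of the WASP group, only the partner protein was called. Wipf1 (WIP) binds WASP and protects it from degradation. Its mean normalized count was 1663 in the table of Double, 1659 in that of Smc3 and 991.8 in that of Npm1. These means take in the WT libraries, and the tables were normalized separately. Against WT, Wipf1 was higher in Double, at a log2 fold change of 0.40 ± 0.13 (adjusted p = 0.0127), and in Smc3, at 0.44 ± 0.15 (adjusted p = 0.0312), per the authors' deposited tables. In Npm1 it stood at -0.28 ± 0.11 (adjusted p = 0.0672) per the authors' deposited table, which passed the threshold once the median of all genes was set to 0 or a trend with GC content was removed. Was itself, at 0.13 ± 0.09, 0.12 ± 0.10 and -0.16 ± 0.09 in the authors' deposited tables of Double, Smc3 and Npm1, and its widely expressed relative Wasl (N-WASP), at 0.28 ± 0.12, 0.19 ± 0.11 and 0.21 ± 0.11, did not pass the threshold in any.

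In the WAVE complex the scaffold of blood cells rose in Double and in Smc3, and in Double the related subunits Cyfip1 and Cyfip2 moved in opposite directions. Nckap1l (Hem1), the scaffold of the complex in blood cells, was higher in Double, at 0.33 ± 0.11 (adjusted p = 0.0170), and in Smc3, at 0.36 ± 0.12 (adjusted p = 0.0206), per the authors' deposited tables. It stood at -0.05 ± 0.07 in Npm1 in the authors' deposited table. Its relative Nckap1, the form used outside blood, was higher in Npm1, at 0.39 ± 0.14 (adjusted p = 0.0429) per the authors' deposited table. That call did not hold once GC content or the median was corrected, or when p-values were adjusted over all genes with a p. Cyfip1 (Sra1), which carries the Rac binding site, rose in Double by 0.33 ± 0.09 (adjusted p = 0.00239) per the authors' deposited table, and stood at 0.26 ± 0.11 in Smc3 (adjusted p = 0.0959) and 0.16 ± 0.11 in Npm1 (adjusted p = 0.286). Its close relative Cyfip2, more abundant per length in each table (35.1 against 15.8 for Cyfip1 in that of Double), was lower in Double, at -0.30 ± 0.11 (adjusted p = 0.0338), and in Npm1, at -0.50 ± 0.10 (adjusted p = 2.72e-05), per the authors' deposited tables. In Smc3, Cyfip2 stood at -0.01 ± 0.09 in the authors' deposited table. The call for Cyfip2 in Double was lost with the GC trend removed.

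Among the other genes of the WAVE group, Abi2, an adaptor that links the complex to Abl kinase, was higher in Double at 0.43 ± 0.14 (adjusted p = 0.0137) per the authors' deposited table. Abi2 lost that call with the GC trend removed. Its relative Abi1, at 42.7 per kb per M the more abundant form in the table of Double against 6.73 for Abi2, stood between -0.05 and 0.01 in the authors' 3 deposited tables. Abi3 stood at -0.42 ± 0.20 in Double and -0.47 ± 0.20 in Smc3 in the authors' deposited tables, with adjusted p of 0.135 and 0.0864. Baiap2 (IRSp53), which ties Rac and Cdc42 to WAVE at curved membrane, was higher in Smc3 at 0.48 ± 0.17 (adjusted p = 0.0402) per the authors' deposited table, and lost the call when p-values were adjusted over all genes with a p. Wasf2, the main WAVE protein of these cells by level, stood at 0.05 ± 0.10 in Double, 0.06 ± 0.10 in Smc3 and -0.15 ± 0.07 in Npm1 in the authors' deposited tables.

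The ARP2/3 complex did not move as a block. Arpc1b, the blood cell form of the WD repeat subunit, fell in Npm1 by 0.68 ± 0.15 on the log2 scale, or to 0.624 of WT (adjusted p = 0.000278), per the authors' deposited table. In the other tables it stood at 0.35 ± 0.14 in Double (adjusted p = 0.0704) and 0.38 ± 0.17 in Smc3 (adjusted p = 0.0963), as the authors' deposited tables give it. Its paralogue Arpc1a, which fills the same place in the complex, was lower in Double at -0.27 ± 0.10 (adjusted p = 0.0471) per the authors' deposited table, and stood at -0.15 ± 0.10 in Smc3 and -0.01 ± 0.10 in Npm1. That call was lost with the GC trend removed and when p-values were adjusted over all genes with a p. Per length, Arpc1b stood at 84.7 per kb per M and Arpc1a at 65.0 in the table of Double. In that of Npm1, Arpc1b stood at 55.7 and Arpc1a at 67.7. Each mean takes in the WT libraries and depends on the transcript length used (3105 bases for Arpc1b, 1632 for Arpc1a). The order of the pair within a group was therefore not shown.

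Arpc2, a core subunit, was higher in Double at 0.30 ± 0.10 (adjusted p = 0.0195) per the authors' deposited table. Actr2 (Arp2), the actin-like subunit that with Arp3 forms the seed of the branch, was higher in Double at 0.31 ± 0.08 (adjusted p = 0.00183) per the authors' deposited table, but at 0.13 and without a call when the GC trend was removed. Actr3 (Arp3) stood at 0.24 ± 0.10 in Double (adjusted p = 0.0734), 0.24 ± 0.15 in Smc3 and -0.03 ± 0.08 in Npm1 in the authors' deposited tables. Other transcripts of Actr3, which share its reads, stood at 0.26 ± 0.10 in Double and passed (adjusted p = 0.0411) per the authors' deposited table. The remaining subunits Arpc3, Arpc4, Arpc5 and Arpc5l lay between -0.10 and 0.16 in the authors' 3 deposited tables, with no call. In all, 2 of 9 ARP2/3 genes were higher and 1 lower in Double, 0 of 9 in either direction in Smc3, and 1 of 9 lower in Npm1. Of all genes tested, 8.87% were higher and 9.82% lower in Double, 7.94% and 6.6% in Smc3, and 9.1% and 9.0% in Npm1. Counts this small cannot be set apart from those shares.

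In the arm from PAK to cofilin, Limk1, the LIM kinase downstream of Rac, was lower in Npm1 at -0.49 ± 0.15 (adjusted p = 0.0121) per the authors' deposited table. With the GC trend removed this call was lost, and Limk1 passed the threshold as higher in Double and in Smc3, where the authors' deposited tables give 0.28 ± 0.15 (adjusted p = 0.191) and 0.40 ± 0.15 (adjusted p = 0.0622). Limk2, its close relative, stood at 0.07 ± 0.15, 0.25 ± 0.13 and -0.20 ± 0.14 in the authors' deposited tables of Double, Smc3 and Npm1. The Rac and Cdc42 effector kinase Pak1 stood at 0.21 ± 0.19 in Double, 0.22 ± 0.18 in Smc3 and -0.41 ± 0.16 in Npm1 (adjusted p = 0.0526) per the authors' deposited tables. It passed the threshold in Npm1 with the median set to 0, with the GC trend removed or among genes with a mean of at least 50. Pak2, at 36.5 per kb per M the more abundant PAK in the table of Double against 14.7 for Pak1, lay between 0.10 and 0.14 in the authors' 3 deposited tables. Cfl1, the main cofilin of these cells, lay between -0.11 and -0.03 in them. Cfl2, known as the muscle cofilin and far less abundant per length in the table of Double (7.58 against 339 per kb per M), was higher in Double at 0.51 ± 0.13 (adjusted p = 0.000946) and in Smc3 at 0.37 ± 0.12 (adjusted p = 0.0171) per the authors' deposited tables. Its transcript has a GC content of 36.9%, the lowest of the 39, and both calls were lost with the GC trend removed.

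Among actins and the proteins that bind their monomers and filaments, Npm1 had its largest number of calls. Tmsb4x moved against WT in each genotype. It was higher in Double at 0.56 ± 0.18, or 1.47 times WT (adjusted p = 0.0174), and in Smc3 at 0.73 ± 0.19, or 1.66 times WT (adjusted p = 0.00327), and it fell in Npm1 by 0.56 ± 0.18, to 0.680 of WT (adjusted p = 0.0187), per the authors' deposited tables. With the GC trend removed, Tmsb4x in Double stood just outside the threshold (its adjusted p ranged from 0.0153 to 0.0503 over the alternatives). Tmsb4x is X-linked, and the part of sex in its values was not tested.

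Actg1, the second cytoplasmic actin, fell in Npm1 by 0.49 ± 0.11 (adjusted p = 0.000423) per the authors' deposited table and stood at -0.14 ± 0.16 in Double and 0.08 ± 0.14 in Smc3. Actb stood at -0.07 ± 0.11, -0.02 ± 0.11 and 0.01 ± 0.13 in the authors' deposited tables of Double, Smc3 and Npm1, and Pfn1 at -0.16 ± 0.10, -0.12 ± 0.12 and -0.10 ± 0.08. Vasp, which speeds filament growth at barbed ends, fell in Npm1 by 0.50 ± 0.12 (adjusted p = 0.000584) per the authors' deposited table and stood at -0.19 ± 0.14 in Double and 0.10 ± 0.13 in Smc3. Its relative Evl was higher in Smc3 at 0.58 ± 0.18 (adjusted p = 0.0140) per the authors' deposited table, and stood at 0.25 ± 0.20 in Double and -0.50 ± 0.23 in Npm1 (adjusted p = 0.110).

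Coro1a, the coronin of blood cells, which acts on ARP2/3 branches, was higher in Smc3 at 0.53 ± 0.19 (adjusted p = 0.0373) per the authors' deposited table and stood at 0.22 ± 0.20 in Double and -0.51 ± 0.24 in Npm1 (adjusted p = 0.114). Its Smc3 call was lost when p-values were adjusted over all genes with a p. The broadly expressed Coro1b was lower in Npm1 at -0.26 ± 0.09 (adjusted p = 0.0230) per the authors' deposited table, a call lost with the GC trend removed. Iqgap1, a scaffold for Rac and Cdc42, stood at 0.27 ± 0.11 in Double, 0.26 ± 0.13 in Smc3 and -0.20 ± 0.09 in Npm1 in the authors' deposited tables, with adjusted p of 0.0740, 0.149 and 0.0812. It passed the threshold as lower in Npm1 with the median set to 0 or the GC trend removed. In this group of 9, 1 was higher and 0 lower in Double, 3 higher and 0 lower in Smc3, and 0 higher and 4 lower in Npm1. The shares of all genes were 8.87% higher and 9.82% lower in Double, 7.94% and 6.6% in Smc3, and 9.1% and 9.0% in Npm1.

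**Figure D3:**
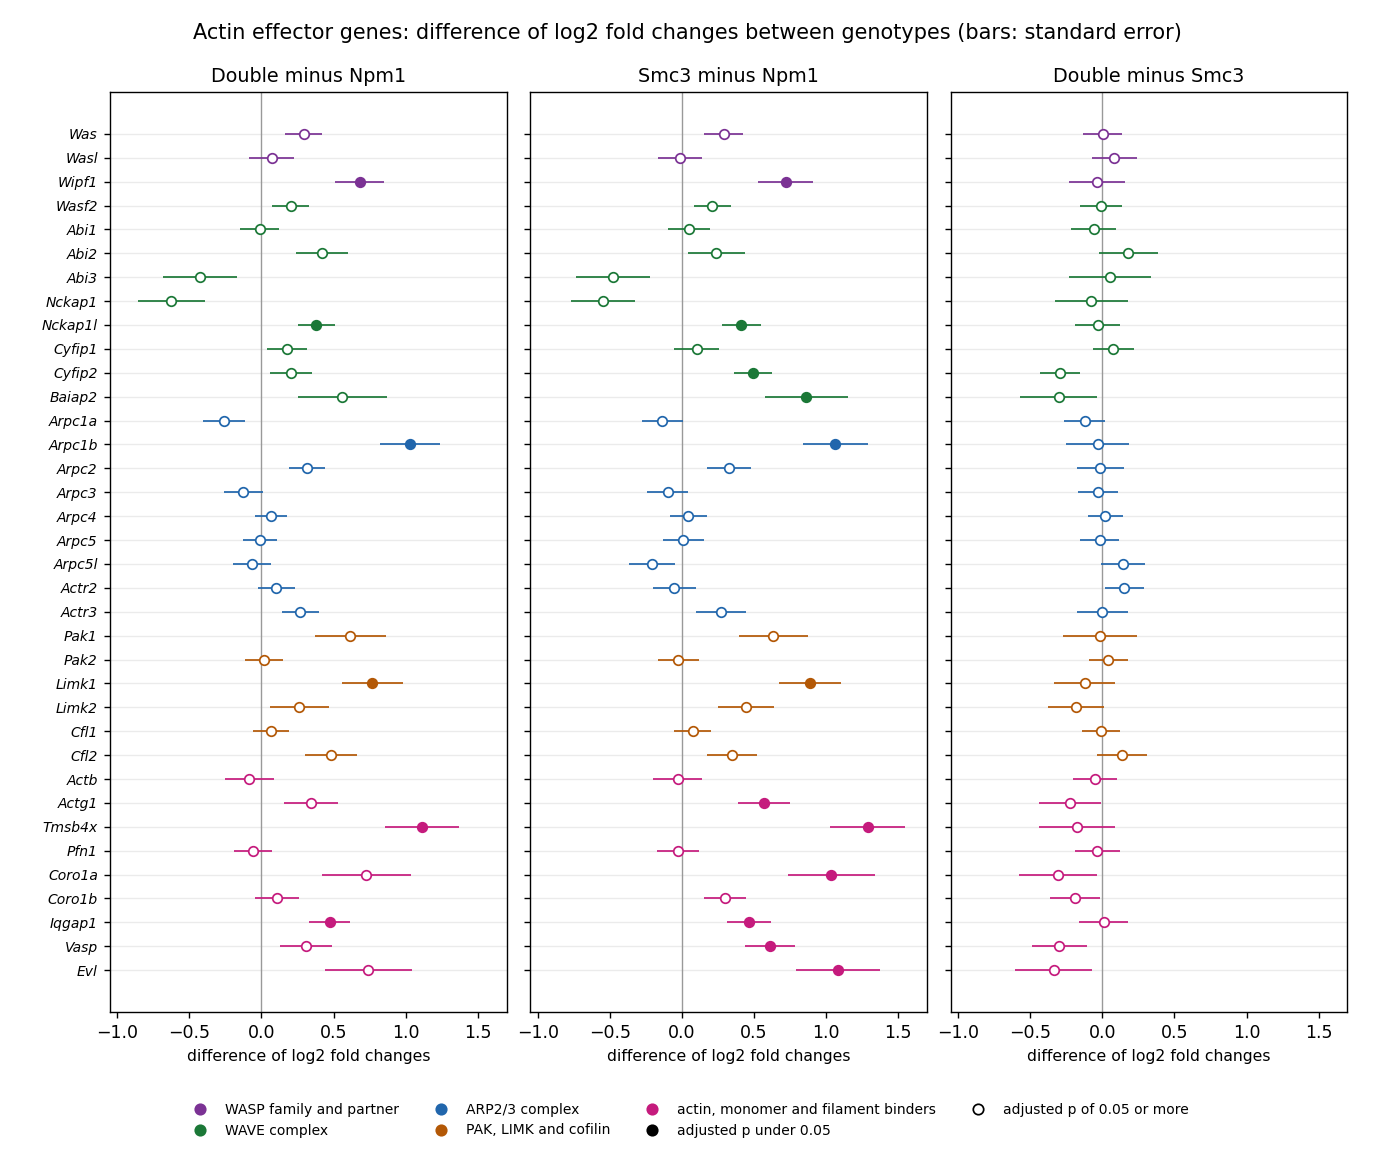
Difference of log2 fold changes (horizontal, points) with its standard error (bars) for the same 36 genes, as Double minus Npm1, Smc3 minus Npm1 and Double minus Smc3 (panels), coloured by role. Filled points have an adjusted p under 0.05: 6 to the right of 0 in the first panel, 12 in the second and 0 in the third.

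The question of the Npm1 and cohesin lesions together was addressed by setting genotypes against each other. Each difference is that of 2 log2 fold changes, tested with a z test whose variance sums both squared standard errors and thereby counts WT error more than once. Double minus Npm1 is the change that goes with adding the Smc3 lesion to Npm1. Here, as in Smc3 minus Npm1, sex and depth cannot be told apart from genotype. Double minus Npm1 was higher for 6 of 38 genes and lower for 0, against 4.09% and 2.89% of all genes tested. At an unadjusted p under 0.05, 14 were higher and 1 lower, against 9.39% and 8.58% of all genes. The 6 were Tmsb4x at 1.11 ± 0.26 or 2.16-fold (adjusted p = 0.00127), Arpc1b at 1.03 ± 0.21 or 2.05-fold (adjusted p = 0.000189), Limk1 at 0.77 ± 0.21 (adjusted p = 0.00881), Wipf1 at 0.68 ± 0.17 (adjusted p = 0.00355), Iqgap1 at 0.47 ± 0.14 (adjusted p = 0.0199) and Nckap1l at 0.38 ± 0.13 (adjusted p = 0.0492). They come from each of the 5 roles: the partner of WASP, the WAVE scaffold, an ARP2/3 subunit, a LIM kinase, and a monomer binder with a scaffold. The median difference of the 38 was 0.20, against -0.00 for all genes tested. For the differences, all genes tested take in genes of low level, which are rarely called. Among genes with a mean of at least 50, 7 of 36 actin effector genes were higher and 0 lower, against 8.19% and 6.26% of all genes.

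Smc3 minus Npm1 was higher for 12 of 38 genes and lower for 0, against 7.57% and 6.36% of all genes tested. Without adjustment, 18 were higher and 1 lower at p under 0.05, against 25.6% of all genes in either direction. Tmsb4x differed by 1.29 ± 0.26, or 2.44-fold (adjusted p = 9.44e-05), Evl by 1.08 ± 0.29 or 2.11-fold (adjusted p = 0.00438), Arpc1b by 1.06 ± 0.22 or 2.09-fold (adjusted p = 0.000162) and Coro1a by 1.03 ± 0.30 or 2.05-fold (adjusted p = 0.00933). The adaptor, kinase and scaffold genes Limk1 (0.89 ± 0.22), Baiap2 (0.86 ± 0.29), Wipf1 (0.72 ± 0.19), Iqgap1 (0.47 ± 0.16) and Nckap1l (0.41 ± 0.14) were also higher in Smc3 than in Npm1, with adjusted p between 0.00133 and 0.0262. So were Vasp (0.61 ± 0.17), Actg1 (0.57 ± 0.18) and Cyfip2 (0.49 ± 0.13), with adjusted p between 0.00379 and 0.0194. The median difference was 0.25, against 0.00 for all genes tested. Among genes with a mean of at least 50, 13 of 36 actin effector genes were higher and 0 lower, against 13.4% and 13.8% of all genes. With the WT share of the variance taken out, 15 of the 38 were higher and 1 lower for Double minus Npm1, and so were 10.3% and 10.4% of all genes. For Smc3 minus Npm1, 18 were then higher and 2 lower, against 14.9% and 15.8% of all genes. Among those added were Cfl2, Pak1, Was and Arpc2 as higher in Double and in Smc3 than in Npm1, and Nckap1 as lower in both.

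**Figure D4:**
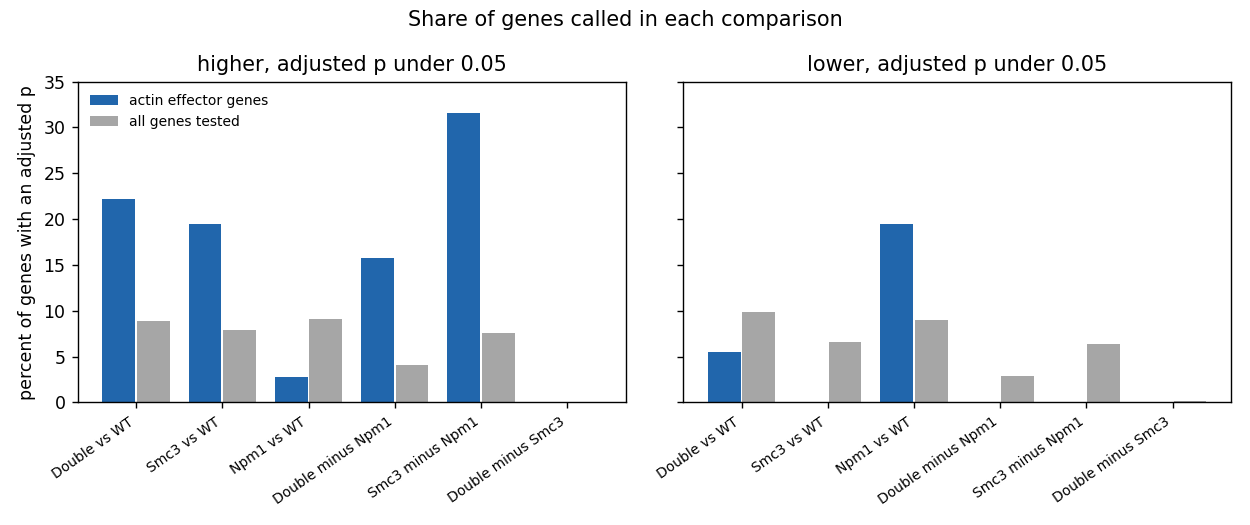
Percent of genes with an adjusted p that were called (vertical) in each comparison (horizontal), for the actin effector genes (blue) and for all genes tested (grey), as higher (left panel) and lower (right panel). The blue bar stands highest for Smc3 minus Npm1 among higher calls, at 31.6% against 7.57%, and for Npm1 vs WT among lower calls, at 19.4% against 9.0%. The grey bars of the differences take in genes of low level. Among genes with a mean of at least 50, Smc3 minus Npm1 gave 36.1% against 13.4% higher.

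Between Double and Smc3, 0 of 39 genes passed in either direction, against 0.0801% of all genes tested as higher and 0.182% as lower. At an unadjusted p under 0.05, 0 were higher (0.988% of all genes) and 1 was lower (1.82% of all genes): Cyfip2, at -0.29 (95% interval -0.56 to -0.02), named after its value was seen. With the WT share of the variance taken out the count was also 0. The 95% intervals of the 39 differences ran from -0.86 to 0.70, so changes of that size could have been missed for single genes. Double minus the sum of the Smc3 and Npm1 changes gave 0 of 38 genes in either direction, as it gave 0.0% of all genes higher and 0.0% lower. That difference is 0 where unshrunken effects of the lesions add on the log2 scale. The deposited changes are shrunk towards 0 in each table by itself, so for them this holds only roughly. At an unadjusted p under 0.05, 1 was higher (0.981% of all genes) and 0 lower (0.479% of all genes): Arpc1b, at 0.65 ± 0.27 (95% interval 0.13 to 1.17), again named after its value was seen. Taking out the WT share of the variance, or the GC trend, also gave 0 of these genes. The largest 95% bounds of the 38 were -1.03 and 1.17.

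Outside these genes, 109 others of the actin system were listed in 6 groups, of which 106 were found. In Double 13 of 100 with an adjusted p were higher and 6 lower, in Smc3 16 of 97 were higher and 2 lower, and in Npm1 6 of 95 were higher and 24 lower in the authors' deposited tables. Of all genes tested, 8.87% were higher and 9.82% lower in Double, 7.94% and 6.6% in Smc3, and 9.1% and 9.0% in Npm1. The same shares stand beside all counts of calls against WT in the lists below. Double minus Npm1 called 19 of 105 as higher and 4 as lower, against 4.09% and 2.89% of all genes. Smc3 minus Npm1 called 27 of 105 as higher and 5 as lower, against 7.57% and 6.36% of all genes. Double minus Smc3 called 0 in either direction, against 0.0801% of all genes as higher and 0.182% as lower. Rac2 stood at 0.10 ± 0.15 in Double (adjusted p = 0.710), was higher in Smc3 at 0.38 ± 0.14 (adjusted p = 0.0397) and lower in Npm1 at -0.68 ± 0.15 (adjusted p = 0.000183) per the authors' deposited tables. Dock1 was higher in Double at 0.53 ± 0.19 (adjusted p = 0.0403), stood at 0.36 ± 0.20 in Smc3 (adjusted p = 0.222) and was lower in Npm1 at -0.63 ± 0.21 (adjusted p = 0.0251) per the authors' deposited tables.

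Among the GTPases and adaptors upstream, 3 of 21 were higher and 1 lower in Double, 5 of 20 higher and 0 lower in Smc3, and 1 of 20 higher and 7 lower in Npm1. Arhgdib, which holds Rac proteins inactive in blood cells, stood at 0.46 ± 0.14, 0.55 ± 0.17 and -0.56 ± 0.12 in the authors' deposited tables of Double, Smc3 and Npm1, each past the threshold. Of other nucleation factors, 3 of 13 were higher and 2 lower in Npm1, with the nucleator Jmy at 0.52 ± 0.11 (adjusted p = 8.23e-05) and Gmfg, which takes branches apart, at -0.68 ± 0.16 (adjusted p = 0.000948) per the authors' deposited table. Of severing and monomer-binding genes, 1 of 16 was higher in Double, 3 of 16 were higher in Smc3 and 5 of 16 were lower in Npm1, where Tmsb10, a relative of Tmsb4x, stood at -0.76 ± 0.15 (adjusted p = 5.90e-05) per the authors' deposited table. Of formins and barbed end factors, 3 of 14 were higher in Double, 1 of 13 in Smc3 and 0 of 13 in Npm1, where 2 were lower. The formin Diaph2 stood at 0.63 ± 0.15 in Double (adjusted p = 0.000627) and 0.57 ± 0.18 in Smc3 (adjusted p = 0.0201) per the authors' deposited tables.

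The myosin and kinase group held genes that did not follow the pattern of Tmsb4x. Nonmuscle myosin heavy chain Myh10 was lower in Double at -0.92 ± 0.15 (adjusted p = 1.04e-07) and in Smc3 at -0.86 ± 0.16 (adjusted p = 7.33e-06), and stood at 0.01 ± 0.10 in Npm1 in the authors' deposited tables. Pak6, a more distant relative of Pak1, was higher in Npm1 at 1.21 ± 0.23 (adjusted p = 1.51e-05) per the authors' deposited table. Of crosslinkers and membrane linkers, 4 of 22 were higher and 4 lower in Double, 6 higher and 1 lower of 22 in Smc3, and 1 higher and 6 lower of 21 in Npm1. Moesin (Msn), which ties filaments to the membrane, was higher in Double at 0.36 ± 0.08 (adjusted p = 0.000283) and in Smc3 at 0.30 ± 0.10 (adjusted p = 0.0270). It stood at 0.03 ± 0.09 in Npm1. The crosslinker Actn1 was lower in Npm1 at -1.01 ± 0.20 (adjusted p = 3.99e-05) and in Double at -0.55 ± 0.20 (adjusted p = 0.0363). In Smc3, Actn1 stood at -0.22 ± 0.20, all per the authors' deposited tables.

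Cell type markers moved with the genotypes too. Beside their counts, 8.87% of all genes tested were higher and 9.82% lower in Double, 7.94% and 6.6% in Smc3, and 9.1% and 9.0% in Npm1. Of 7 basophil and mast cell markers, 2 were higher and 0 lower in Double, 7 higher and 0 lower in Smc3, and 0 higher and 6 lower in Npm1 in the authors' deposited tables, and their summed mean normalized counts over the 6 libraries of a table were 16534, 27224 and 7960 in the same order. Of 9 monocyte and dendritic markers, 5 were higher in Double, 4 in Smc3 and 0 in Npm1, with none lower, and their summed means were 23470, 22421 and 11861. Of 10 erythroid markers, 0 were higher and 8 lower in Double, 0 higher and 6 lower in Smc3, and 2 higher and 3 lower in Npm1. Their summed means were 82263, 81227 and 79765. All these summed means take in the WT libraries, and the tables were normalized separately, so the sums are not group levels. Of 11 neutrophil markers, 3, 5 and 4 had an adjusted p in Double, Smc3 and Npm1, and of these 2 were higher in Double, 2 were higher in Smc3 and 1 was lower in Npm1. The neutrophil markers without an adjusted p, 8 in Double, 6 in Smc3 and 7 in Npm1, were all below 0, and the median over the 11 was -0.56, -0.38 and -0.44 on the log2 scale in the authors' deposited tables. Those markers had no unadjusted p either, though their means were not low, such as 3428, 3861 and 2893 for Ngp in the same order. The reason is not given, and the medians over the 11 rest mostly on these markers without a test. The 3 tables share their WT libraries, so a fall in each is not an independent result. The 10 stem and progenitor markers had 4 higher in Double and 5 higher in Smc3, while in Npm1 1 of 9 was lower. T and NK cell markers had 2, 3 and 0 of 8 higher in Double, Smc3 and Npm1, and 1 lower in Npm1. Megakaryocyte markers had 1, 3 and 1 of 7 higher, stromal and endothelial markers 1 of 7, 2 of 6 and 0 of 6 higher with 1 lower in Npm1, and B cell markers 0 higher with 1 of 7 lower in Double. No defining marker of these lists was at 0, and many of the genes described, such as Coro1a, Was and Nckap1l, differ in level between mature blood cell types. The part of cell type shares in the results was not tested.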

How the data were processed

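Per the labels' protocols, HSPC RNA was isolated in Trizol, and the NEBNext Ultra II kit, in a version that does not mark strand, gave poly(A) libraries. The authors used STAR, build mm9 and DESeq2, per the submitters' processing notes. Their versions are not given in the sources used. Each of the 3 deposited tables holds 33018 RefSeq transcripts with, per the file headers, a mean of normalized counts (a normalized signal over 6 libraries), a log2 fold change with its standard error, a Wald score, a p-value and an adjusted p-value, all made by the authors with DESeq2. Each table was normalized by itself and gives fold changes shrunk towards 0, which understates the changes of genes with few reads. None of them holds values per library.

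One transcript per symbol was kept (24016 genes, 53 date-like symbols matched by accession, 9 listed actin genes under older symbols). Isoforms of a symbol share reads, so their rows are not independent. Levels are means divided by length and by the summed means. Differences between genotypes were tested with a z test on the deposited estimates (variance the sum of squared standard errors, scipy 1.17.1), Benjamini-Hochberg adjusted over all genes with a p. Depth and the reads of Wasf1, Wasf3 and Pak3 came from matching means to whole reads over size factors at a relative tolerance of 1e-09. Which labelled library each is cannot be told. Where their mean reached 50, the genes had a median standard error of 0.110 in Double, 0.123 in Smc3 and 0.104 in Npm1 (log2). GC content came from GENCODE M21 transcripts for all 39 genes and 99.1% of all genes. The alternatives were thresholds of 0.1 and 0.01, other sets of genes for the adjustment, a mean of at least 50, the transcript with the smallest standard error, a median set to 0, a GC trend removed (for differences between genotypes chosen after seeing the data, and run on genes with a mean of at least 50) and the WT share of the variance taken out.

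Genes called at an adjusted p under 0.05 in any comparison are described in full, and others by level and range. From each actin list up to 3 genes with the smallest p could be named. The genes, lists and tests were chosen with earlier results of these data known.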

Additional observations from a re-analysis of the deposited data

How the results depend on the processing

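No call of a named gene changed direction under the alternatives run. Of 337 comparisons of a gene's call with an alternative, 245 kept it, 38 lost it and 54 gained one. At a threshold of 0.1 the Smc3 comparison called 12 of 36 actin effector genes (33.3%, against 22.2% of all genes). At 0.01 Double called 3, all higher (8.33%, against 4.50% of all genes called higher and 10.7% in either direction). Smc3 called 1 as higher (Tmsb4x, 2.78%, against 3.85% called higher and 6.22% in either direction). Npm1 called 4, all lower (11.1%, against 4.12% called lower and 7.56% in either direction). In Smc3 their share was thus below that of all genes both ways, and in Double only where both directions are counted. Removing the GC trend left 5 calls in Double, all higher (13.9%, against 14.0% of all genes called in either direction and 6.62% called higher), of which 4 were among its 10 main calls, since the calls for Abi2, Actr2, Arpc1a, Cfl2, Cyfip2 and Tmsb4x were lost. The trend itself ranged over the genes from -0.16 to 0.26 in Double, -0.06 to 0.14 in Smc3 and -0.18 to 0.26 in Npm1 (log2). Taking out the WT share of the variance gave 16 calls for Double minus Npm1 (42.1%, against 20.7% of all genes) and 20 for Smc3 minus Npm1 (52.6%, against 30.8%). All 6 and all 12 main calls of these differences were kept there, with the median set to 0, and with the GC trend removed among genes with a mean of at least 50, which changes both choices at once. Setting the median to 0 moved the share of higher calls among all genes to 35.3% in Npm1 (33.7% with the GC trend removed, 50.3% as deposited), to 77.8% for Double minus Npm1 (58.6% as deposited) and to 75.3% for Smc3 minus Npm1 (54.4% as deposited), and the cause was not tested. No paired analysis was possible because the tables hold no values per library, and leaving out a library was not run for the same reason. Calls for genes with low means are limited by depth, most of all in WT.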
